A study of Homo sapiens with 6 samples.

Results

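Ancient LINEs and MIR elements are transposons that spread in the ancestors of mammals and earlier amniotes and no longer move in the human genome. They were taken here as the repeat names that begin with L2, L3, L4, L5, CR1, MIR, MamRTE, RTE or HAL1, and 35 of the 15641 entries in the count table fit that rule. Names of L1 families and of the UCON and Eulor repeats were left out. The 35 fall into 9 L2 entries, 11 L3 and CR1 entries, 6 L4, L5 and RTE entries, 5 MIR entries and 4 HAL1 entries. Naive H9 cells were compared with primed H9 cells, with 3 libraries of chromatin-bound RNA in each group. H9 is an established human embryonic stem cell line. The labels name RSeT, a naive-state medium, in the growth protocol of all 6 libraries, so the primed state rests on the treatment label alone. No genetic change or added agent is named for either group, and separate cultures are not mentioned, so p-values reflect the spread among these 6 libraries alone, part or all of which may be technical.

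L2 is an old LINE, a retrotransposon that coded for its own reverse transcriptase. MIR is a short element derived from a tRNA, and its 3′ end resembles that of L2, whose enzymes are thought to have copied it. L3 and CR1 belong to the CR1 group of LINEs first known from birds, L4, L5 and MamRTE are RTE-type LINEs, and HAL1 is a shortened relative of L1. Their copies are worn down by mutation and lie scattered through introns and between genes, so a read on one of them in chromatin RNA can belong to a longer transcript that runs through the copy. Counts of a name are summed over its copies, so an entry has no single genome position.

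Library totals lay between 9748202 and 17791046 counts in naive cells and between 118793 and 8106871 counts in primed cells. Primed library 2 was by far the shallowest, and 3 counts in it stand for 16.8 CPM (counts scaled to a fixed library size with TMM factors, which set libraries level on their typical entry). Alpha satellite, the tandem repeat of centromeres, held from 25.3% to 42.9% of counts in naive libraries and from 0.221% to 0.625% in primed libraries, which lowers the share of every other entry in naive libraries. The table holds no genes, so the state labels could be checked only against repeats. HERVK-int and LTR5_Hs, the retrovirus group linked to the naive state, were higher in naive cells by 3.62 ± 0.30 and 1.59 ± 0.21 (log2, SE; edgeR adjusted p = 7.88e-05 and 0.00443), while LTR7Y gave 0.56 ± 0.19 (edgeR adjusted p = 0.0686). HERVH-int and LTR7, the retrovirus group active in pluripotent cells of both states, were also higher in naive cells, by 1.14 ± 0.20 and 0.87 ± 0.18 (log2, SE; edgeR adjusted p = 0.0106 and 0.0156).

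All 35 ancient entries passed the filter on low counts, and 0 of them were called higher or lower in naive cells by edgeR at an adjusted p of 0.05. Over all 3219 entries tested, 12.7% were called, 4.94% higher and 7.77% lower. Of the 1265 named repeats tested (entries that are not simple repeats), 10.4% were called higher. DESeq2 also called 0 of the 35. Of all entries, 409 were called, and 15 without primed library 1, 178 without naive library 2 and 651 without naive library 1. In bulk RNA such as this, fewer cells with a transcript and less of it per cell cannot be told apart. At an unadjusted p under 0.05, 6 of the 35 passed in edgeR, all 6 higher in naive cells, where 31.6% of all entries tested passed in either direction and 13.3% passed as higher. Of the 1265 named repeats tested, 356 passed as higher. The log2 change was above 0 for 30 of the 35 and ran from -0.37 to 1.09, with a median of 0.18. The median over all named repeats tested was 0.21, and that over all entries was -0.0046. With library size as the only scaling, the median of all entries became -0.61 and that of the 35 became -0.48. Then 4 of the 35 were called lower, namely L2-2_Mam, MIR3, HAL1ME and L2d2 (edgeR adjusted p = 0.0135, 0.0385, 0.0335 and 0.0425), where 32.6% of all entries were called lower.

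**Figure D1:**
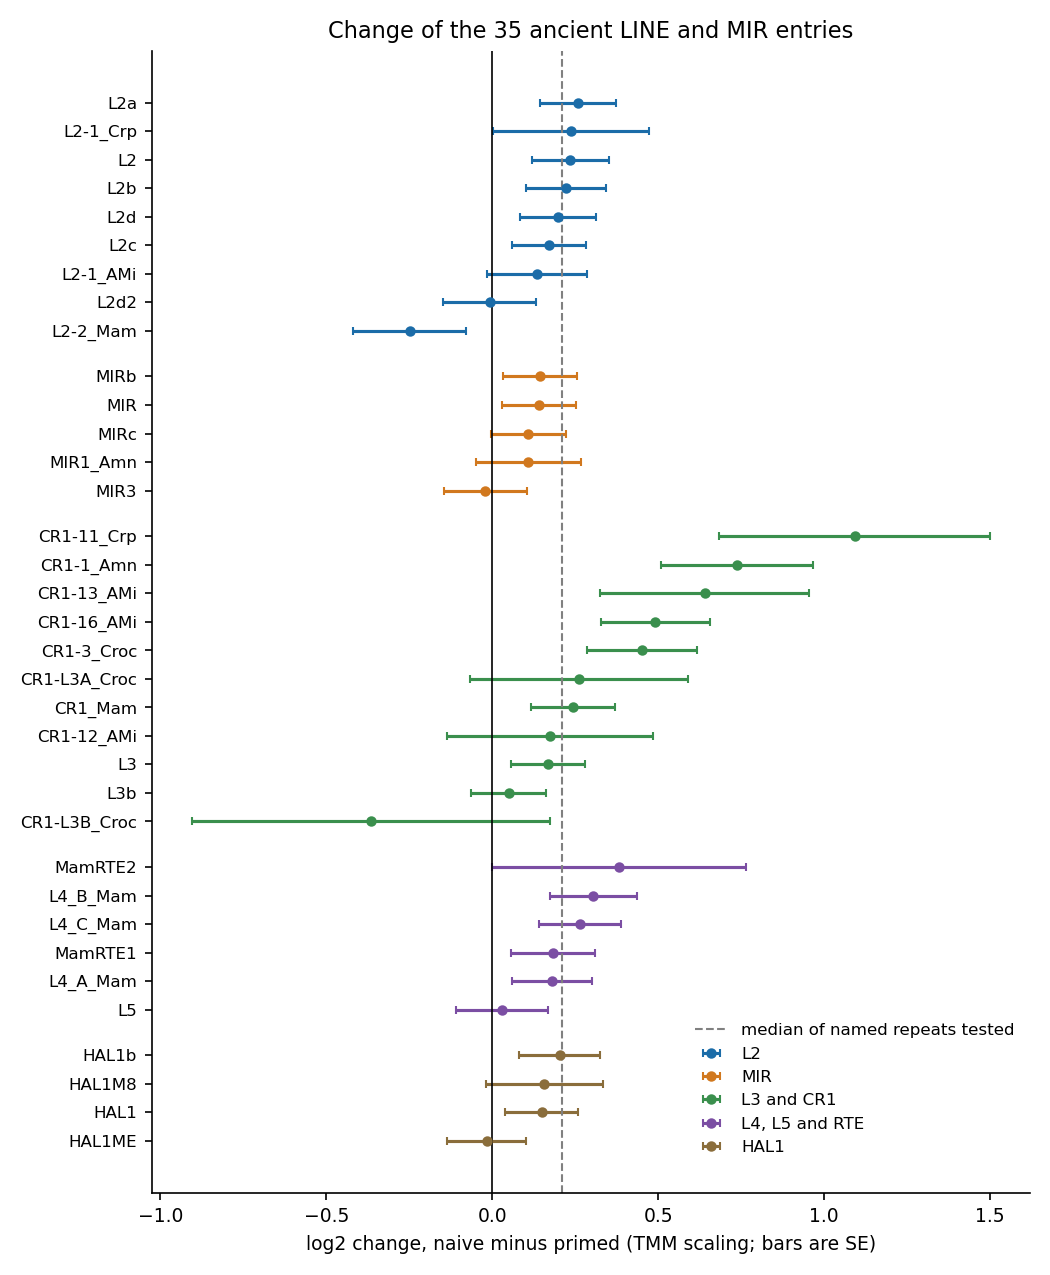
The log2 change from edgeR, naive minus primed, is plotted for each of the 35 entries, grouped by family, with bars for the standard error and a dashed line at the median of named repeats tested (0.21). Most points lie between 0 and 0.3, and several CR1 entries lie further to the right, up to 1.09 for CR1-11_Crp.

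As a share of all counts, the 35 entries held 13.1%, 9.42% and 13.4% in the naive libraries (1 to 3), against 14.9%, 18.8% and 18.0% in the primed ones (1 to 3). The mean was 12.0% ± 2.24 in the naive libraries, against 17.2% ± 2.09 in the primed ones (SD, n = 3 each; exact two-sided permutation p = 0.1, the smallest that 3 against 3 allows). All naive libraries were below all primed ones. Once alpha satellite and ribosomal RNA were taken out of the total, the shares were 19.1%, 18.3% and 20.6% in the naive libraries, against 18.1%, 19.8% and 19.6% in the primed ones. The groups then overlapped, with 19.3% ± 1.15 in the naive libraries, against 19.2% ± 0.910 in the primed ones (SD, n = 3 each; exact permutation p = 0.9). The 95% Wilson interval in the shallow primed library 2 ran from 19.5% to 20.0% on this total and covers counting error only. About the same picture held among named repeats alone, at 20.4% ± 1.11 in the naive libraries, against 20.6% ± 0.634 in the primed ones (exact permutation p = 0.7).

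Split by family on the total without alpha satellite and ribosomal RNA, L2 held 9.12% ± 0.594 of counts in the naive libraries, against 8.79% ± 0.575 in the primed ones (SD, n = 3 each; exact permutation p = 0.6). MIR held 8.19% ± 0.521 in the naive libraries, against 8.38% ± 0.223 in the primed ones (exact permutation p = 0.7, n = 3 each). The 3 smaller families came to 0.906% ± 0.0484 and 0.901% ± 0.0606 for L3 and CR1, 0.376% ± 0.00618 and 0.360% ± 0.0244 for L4, L5 and RTE, and 0.733% ± 0.0373 and 0.745% ± 0.0376 for HAL1, in naive and in primed libraries in each pair (exact permutation p = 0.9, 0.4 and 0.7). No family's groups separated on this total, and L2 and MIR together made up most of the 35 entries' counts in every library.

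**Figure D2:**
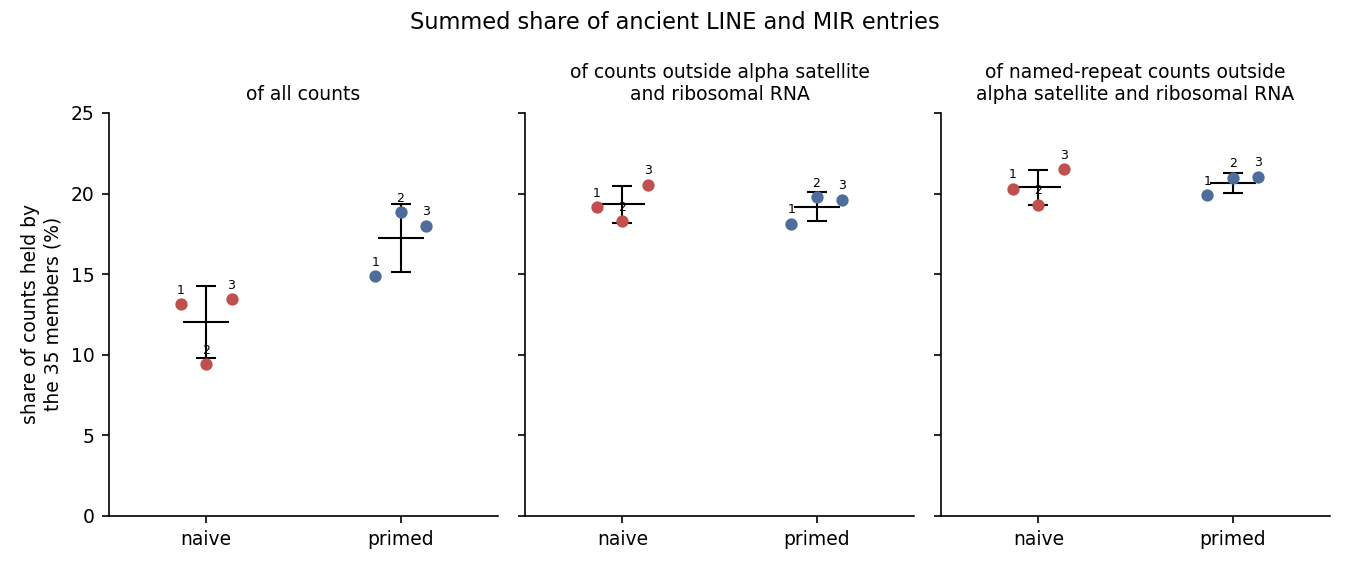
The share of counts held by the 35 entries is plotted per library (numbered points) with the mean and SD of 3 libraries, for 3 totals. Naive libraries are below primed ones in the share of all counts, and the groups overlap on both totals that leave out alpha satellite and ribosomal RNA.

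Within L2, the most counted entry was L2a, at 21655, 23090 and 24006 CPM in the naive libraries (1 to 3), against 18496, 18130 and 20849 CPM in the primed ones (1 to 3). Every naive library was above every primed one. The log2 change was 0.26 ± 0.11 (SE), with a 95% interval of the fit from 0.0099 to 0.51, and did not pass (edgeR adjusted p = 0.143). The entry named L2 was at 9604 ± 461 CPM in the naive libraries, against 8160 ± 675 CPM in the primed ones (SD, n = 3 each), a log2 change of 0.23 ± 0.12 (edgeR adjusted p = 0.190). L2b, L2c and L2d gave 0.22, 0.17 and 0.20 (edgeR adjusted p = 0.231, 0.318 and 0.255). Both L2-1 entries, L2-1_Crp (0.24) and L2-1_AMi (0.13), had overlapping groups. These 7 lie close together, and their standard errors, from 0.11 to 0.24, come near or reach the size of several of these changes.

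The other two L2 entries were below 0. L2d2 was at 5433, 5464 and 5520 CPM in the naive libraries (1 to 3), against 5967, 4369 and 6139 CPM in the primed ones (1 to 3). The naive libraries were close together and lay inside the primed range, whose low end is the shallow library (log2 -0.0071 ± 0.14, edgeR adjusted p = 0.982). L2-2_Mam, a rare mammalian L2 entry, was at 37.4, 36.1 and 39.2 CPM in the naive libraries (1 to 3), against 41.5, 61.5 and 44.0 CPM in the primed ones (1 to 3). It was the single entry of the 35 with every naive library below every primed one. Its log2 change was -0.25 ± 0.17 (edgeR adjusted p = 0.338), and its value in primed library 2 rests on 11 counts.

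MIRb, the most counted of the MIR entries, was at 24398, 24787 and 26420 CPM in the naive libraries (1 to 3), against 22823, 21022 and 24535 CPM in the primed ones (1 to 3). The groups overlapped slightly, naive library 1 lying just under primed library 3. The log2 change was 0.14 ± 0.11, with a 95% interval from -0.10 to 0.39 (edgeR adjusted p = 0.409). MIR was at 19007 ± 620 CPM in the naive libraries, against 17227 ± 1251 CPM in the primed ones, and MIRc at 9420 ± 349 and 8732 ± 666 CPM in the same order (SD, n = 3 each). Their log2 changes were 0.14 and 0.11 (edgeR adjusted p = 0.417 and 0.547). MIR1_Amn, whose name tag stands for amniotes, gave 0.11 ± 0.16 (edgeR adjusted p = 0.668).

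MIR3 had the lowest change of the MIR entries, at 8924, 8950 and 9366 CPM in the naive libraries (1 to 3), against 10286, 7938 and 9415 CPM in the primed ones (1 to 3). The naive libraries lay inside the primed range, and the log2 change was -0.022 ± 0.12, with a 95% interval from -0.30 to 0.25 (edgeR adjusted p = 0.925).

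**Figure D3:**
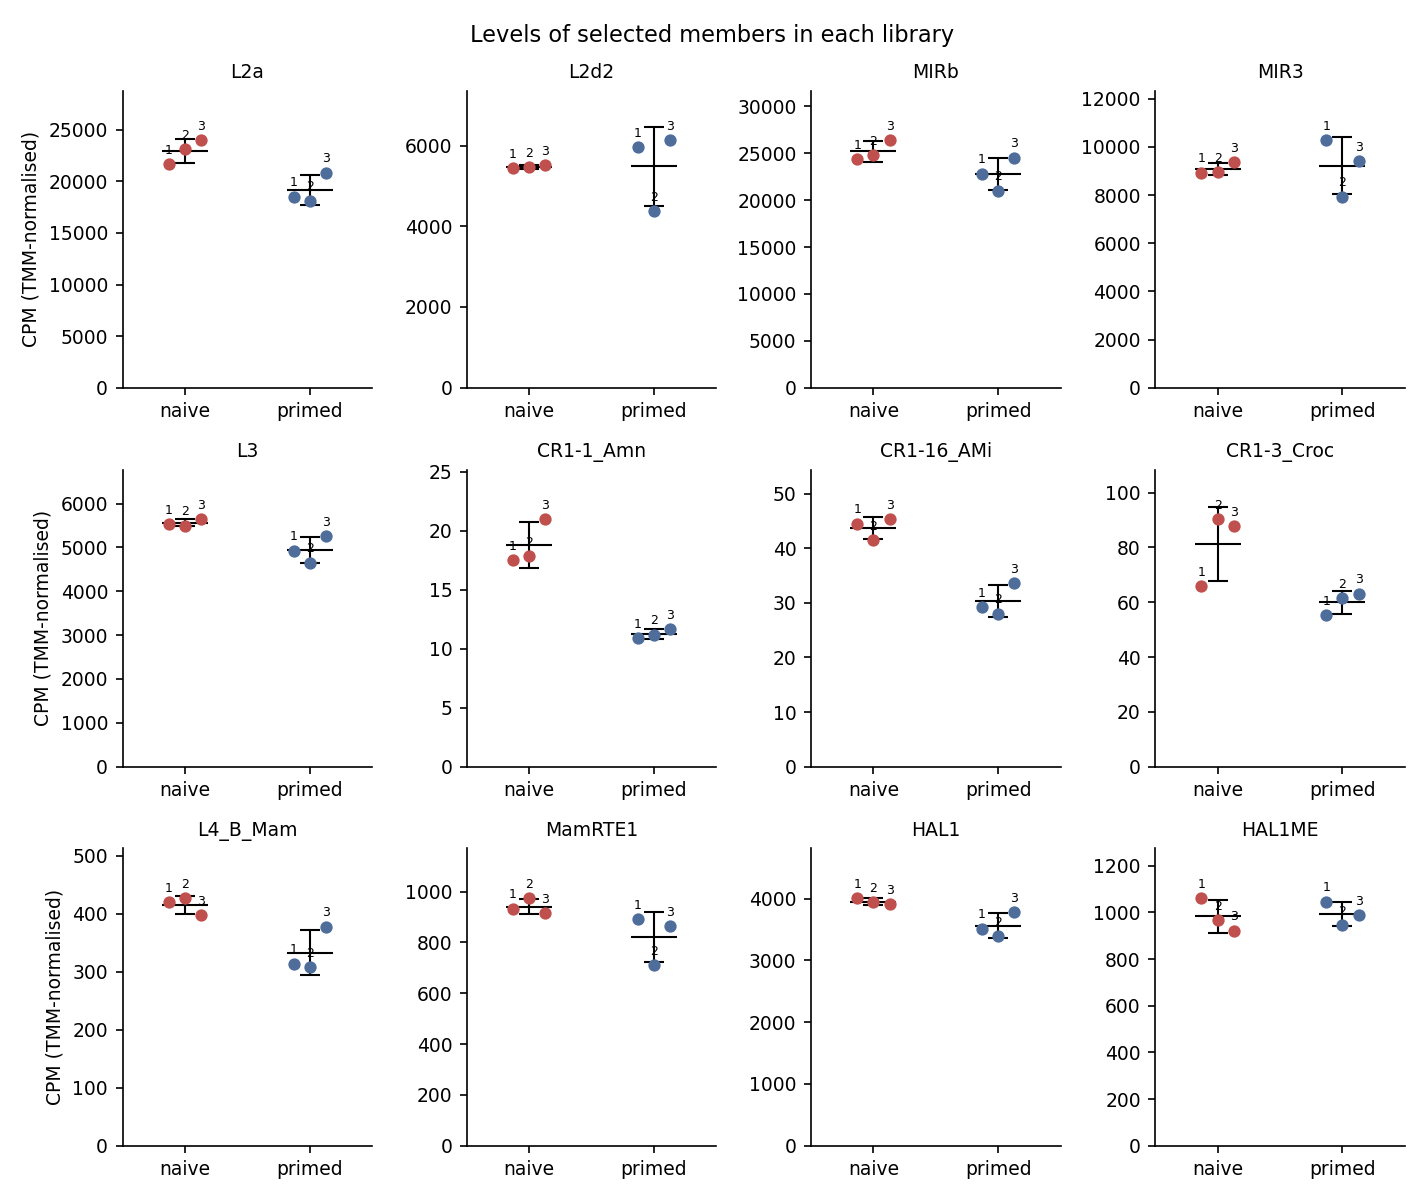
Levels in CPM (TMM-normalised, axes from 0) are plotted for selected members in each library (numbered points), with the mean and SD of 3 libraries per group. Every naive point lies above every primed one for L2a, L3, CR1-1_Amn, CR1-16_AMi, CR1-3_Croc, L4_B_Mam, MamRTE1 and HAL1. The groups overlap for L2d2, MIRb, MIR3 and HAL1ME. The points of CR1-1_Amn, CR1-16_AMi and CR1-3_Croc for primed library 2 rest on 2, 5 and 11 counts.

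The widest changes lay among the L3 and CR1 entries. L3, the main entry of this group in humans, was at 5533, 5495 and 5647 CPM in the naive libraries (1 to 3), against 4925, 4654 and 5254 CPM in the primed ones (1 to 3). The groups did not overlap, and the change was small (log2 0.17 ± 0.11, edgeR adjusted p = 0.322). L3b gave 0.049 ± 0.11 and CR1_Mam, the mammalian CR1 entry, 0.24 ± 0.13 (edgeR adjusted p = 0.793 and 0.212). Of the 8 CR1 entries whose names carry a crocodilian or amniote tag (AMi for the American alligator, Crp for the saltwater crocodile, Croc for crocodilians, Amn for amniotes), 7 were above 0, where 975 of the 1265 named repeats were above 0. Their median log2 change was 0.47 with TMM, 0.26 with simple repeats left out before scaling and -0.15 with library size alone. Over all 9 entries with a crocodilian tag, which include L2-1_Crp and L2-1_AMi but not CR1-1_Amn, the TMM median was 0.26. That of named repeats was 0.21. The crocodilian tags name animals in which the consensus was built, and these entries are rare among the human counts.

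CR1-1_Amn was at 17.5, 17.8 and 21.0 CPM in the naive libraries (1 to 3), against 10.9, 11.2 and 11.7 CPM in the primed ones (1 to 3). The measured groups did not overlap, though the value of primed library 2 rests on 2 counts. In that library 3 counts stand for 16.8 CPM, just under the lowest naive value, so its depth does not fix the gap. The log2 change was 0.74 ± 0.23, with a 95% interval from 0.24 to 1.24, and did not pass (edgeR adjusted p = 0.0553). It passed without primed library 2 (0.75, edgeR adjusted p = 0.0481), a fit in which 5.02% of all entries were called higher, and gave 0.69 without primed library 1 (edgeR adjusted p = 0.273). Scaled by library size alone it was 0.16 (edgeR adjusted p = 0.757), and with simple repeats left out it was 0.53 (edgeR adjusted p = 0.104). DESeq2 gave 0.70 (DESeq2 adjusted p = 0.196).

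CR1-16_AMi was at 44.5, 41.5 and 45.3 CPM in the naive libraries (1 to 3), against 29.2, 28.0 and 33.6 CPM in the primed ones (1 to 3). All naive libraries were again above all primed ones (log2 0.49 ± 0.16, edgeR adjusted p = 0.0686), though the value of primed library 2 rests on 5 counts. Without primed library 1 CR1-16_AMi gave 0.41 (edgeR adjusted p = 0.356). CR1-3_Croc was at 65.7, 90.3 and 87.8 CPM in the naive libraries (1 to 3), against 55.3, 61.5 and 63.1 CPM in the primed ones (1 to 3). Naive library 1 lay close to the primed libraries, and the others stood clear of them (log2 0.45 ± 0.17, edgeR adjusted p = 0.0930). Without naive library 1 CR1-3_Croc passed (0.61, edgeR adjusted p = 0.0226), where 6.81% of all entries were called higher, and without primed library 1 it gave 0.36 (edgeR adjusted p = 0.442). With library size alone CR1-16_AMi and CR1-3_Croc gave -0.10 and -0.19.

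CR1-11_Crp had the largest change of the 35, with a log2 of 1.09 ± 0.41 (edgeR adjusted p = 0.0962), on 26, 44 and 50 counts in the naive libraries (1 to 3), against 10, 1 and 18 counts in the primed ones (1 to 3). In CPM, the single count of primed library 2 put that library above every naive one, so the groups overlapped. CR1-13_AMi gave 0.64 ± 0.31 (edgeR adjusted p = 0.188), with 0.37 without primed library 1 and 0.99 without primed library 3, and has 1 count in primed library 2. At the other end, CR1-L3B_Croc gave -0.37 ± 0.54 (edgeR adjusted p = 0.671) on between 2 and 20 counts per library, and without 1 library its change lay between -0.036 (without naive library 3) and -0.64 (without naive library 2). It was -0.17 without primed library 2, -0.56 without primed library 1 and -0.60 without primed library 3. CR1-L3A_Croc and CR1-12_AMi, at 0.26 and 0.17, had overlapping groups.

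L4_B_Mam, one of 3 mammalian L4 entries, was at 420, 427 and 398 CPM in the naive libraries (1 to 3), against 314, 308 and 378 CPM in the primed ones (1 to 3). Every naive library was above every primed one, with a log2 change of 0.30 ± 0.13 (edgeR adjusted p = 0.137). L4_C_Mam and L4_A_Mam gave 0.26 ± 0.12 and 0.18 ± 0.12 (edgeR adjusted p = 0.168 and 0.326), also without overlap. MamRTE1 was at 941 ± 30.8 CPM in the naive libraries, against 822 ± 98.0 CPM in the primed ones (SD, n = 3 each; log2 0.18 ± 0.13, edgeR adjusted p = 0.346). L5 was at 86.5 ± 6.92 CPM in the naive libraries, against 83.3 ± 6.83 CPM in the primed ones (log2 0.029, edgeR adjusted p = 0.910). MamRTE2 was rare, with 23, 32 and 57 counts in the naive libraries, against 20, 0 and 25 in the primed ones, and a count of 0 in primed library 2 allows a level of up to 16.8 CPM there, above all its other levels.

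HAL1 was at 4009, 3944 and 3906 CPM in the naive libraries (1 to 3), against 3515, 3396 and 3781 CPM in the primed ones (1 to 3). The groups did not overlap (log2 0.15 ± 0.11, edgeR adjusted p = 0.389). HAL1b, at 467 ± 8.29 CPM in the naive libraries, against 407 ± 28.5 CPM in the primed ones (SD, n = 3 each), gave 0.20 ± 0.12 (edgeR adjusted p = 0.274). HAL1M8 gave 0.16 ± 0.18 and HAL1ME -0.017 ± 0.12 (edgeR adjusted p = 0.575 and 0.940), both with overlapping groups. HAL1 entries carry an L1-type coding frame, so reads could be shared with L1 entries, and the counting of reads that match more than one entry is not stated.

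Counted over all 35, every naive library was above every primed one in TMM-scaled CPM for 17 entries and below for 1. Over all entries tested these shares were 19.4% and 11.0%, and over named repeats 36.0% were above. Naive libraries were also above for 57 of 88 mammalian L1 entries, 11 of 19 older primate L1 entries and 23 of 34 MLT1 entries. The same held for 45 of 129 hAT and Tigger entries, 7 of 23 other ancient SINEs and LINEs and 0 of 46 Alu entries. The 17 include MamRTE2 and CR1-13_AMi, with 0 counts and 1 count in primed library 2, where depth does not exclude a level above the naive ones. With every primed level raised to at least that of 3 counts, a floor chosen after seeing the data, 15 entries remained above, beside 13.1% of all entries and 31.9% of named repeats. CR1-1_Amn, with 2 counts in primed library 2, cleared this floor narrowly, at 17.5 CPM in naive library 1 against 16.8 CPM. CR1-16_AMi and CR1-3_Croc rest on 5 and 11 counts in primed library 2, so the floor does not remove the limit of depth for them. By family on that floor, 3 of 9 L2 entries, 5 of 11 L3 and CR1 entries, 4 of 6 L4, L5 and RTE entries, 1 of 5 MIR entries and 2 of 4 HAL1 entries had naive libraries above. All these separations were counted with TMM scaling alone. The median log2 change of the 35 was 0.18 with TMM, -0.048 with simple repeats left out and -0.48 with library size alone.

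Ratios of counts within a library do not depend on any scaling factor, and 18 of them were computed for these families. The exact permutation p of each is at least 0.1, the smallest that 3 against 3 allows, so none could pass 0.05. After Benjamini-Hochberg adjustment over the 18 the lowest was 0.36. In 5 the groups did not overlap. MIR counts per 100 L2 counts were 92.3, 88.4 and 89.0 in the naive libraries (1 to 3), against 100.04, 92.9 and 93.8 in the primed ones (1 to 3) (log2 difference -0.088, exact permutation p = 0.1). Every naive library was below every primed one, though naive library 1 and primed library 2 differ by little. Without primed library 1 the log2 difference was -0.055.

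Within MIR, the MIR3 share of MIR counts was 14.3%, 14.2% and 14.0% in the naive libraries (1 to 3), against 17.0%, 14.7% and 14.9% in the primed ones (1 to 3) (log2 difference -0.13, exact permutation p = 0.1). Primed library 1 stood apart, and without it the log2 difference was -0.065. The 95% Wilson interval in primed library 2, from 14.0% to 15.5%, reaches the naive values. MIRb took 39.3% ± 0.206 of MIR counts in the naive libraries, against 38.5% ± 0.775 in the primed ones (SD, n = 3 each; log2 difference 0.031, exact permutation p = 0.1), and 0.014 on the log2 scale without primed library 1. Ribosomal RNA held 0.169% to 6.08% of counts in naive libraries, against 17.7% in primed library 1, and simple repeats held 2.73% to 3.97% in naive libraries, against 7.33% in primed library 1, the highest of the 6 for both. The part of either in these ratios was not tested.

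Within L2, the L2a share of L2 counts was 32.1%, 32.4% and 32.0% in the naive libraries (1 to 3), against 30.5%, 31.3% and 31.0% in the primed ones (1 to 3) (log2 difference 0.056, exact permutation p = 0.1). The difference was between 0.046 and 0.064 with any 1 library left out, and the Wilson interval of primed library 2, from 30.4% to 32.2%, again reaches the naive values. The L2d2 share, a ratio added after its values were seen, was 8.05%, 7.66% and 7.35% in the naive libraries (1 to 3), against 9.84%, 7.54% and 9.12% in the primed ones (1 to 3). The groups overlapped through the shallow library (log2 difference -0.19, not tested because it was chosen for its values), and the difference was -0.11 without primed library 1 and -0.30 without primed library 2. The shares of L2, L2b, L2c and L2d within L2 and of MIR and MIRc within MIR overlapped between groups, with log2 differences from -0.034 to 0.033.

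Against L2, the groups of the other LINE families overlapped. L3 and CR1 counts per 100 L2 counts were 9.95 ± 0.415 in the naive libraries, against 10.3 ± 0.267 in the primed ones, L4, L5 and RTE counts were 4.14 ± 0.284 and 4.10 ± 0.0846, and HAL1 counts were 8.06 ± 0.591 and 8.48 ± 0.252 in the same order (SD, n = 3 each; exact permutation p = 0.3, 1 and 0.3). CR1-1_Amn counts per 100 counts of L3 and L3b, another ratio added after its values were seen, were 0.267, 0.274 and 0.312 in the naive libraries (1 to 3), against 0.184, 0.197 and 0.185 in the primed ones (1 to 3). These groups lay apart with a log2 difference of 0.59, though the value of primed library 2 rests on 2 CR1-1_Amn counts. A ratio chosen for its values gets no test. All 8 tagged CR1 entries together came to 2.36, 2.85 and 2.73 per 100 counts of L3 and L3b in the naive libraries, against 1.94, 2.65 and 2.142 in the primed ones, where primed library 2 rests on 27 counts and the groups overlapped. Their log2 difference of 0.24 was 0.15 without primed library 1 and 0.37 without primed library 2.

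**Figure D4:**
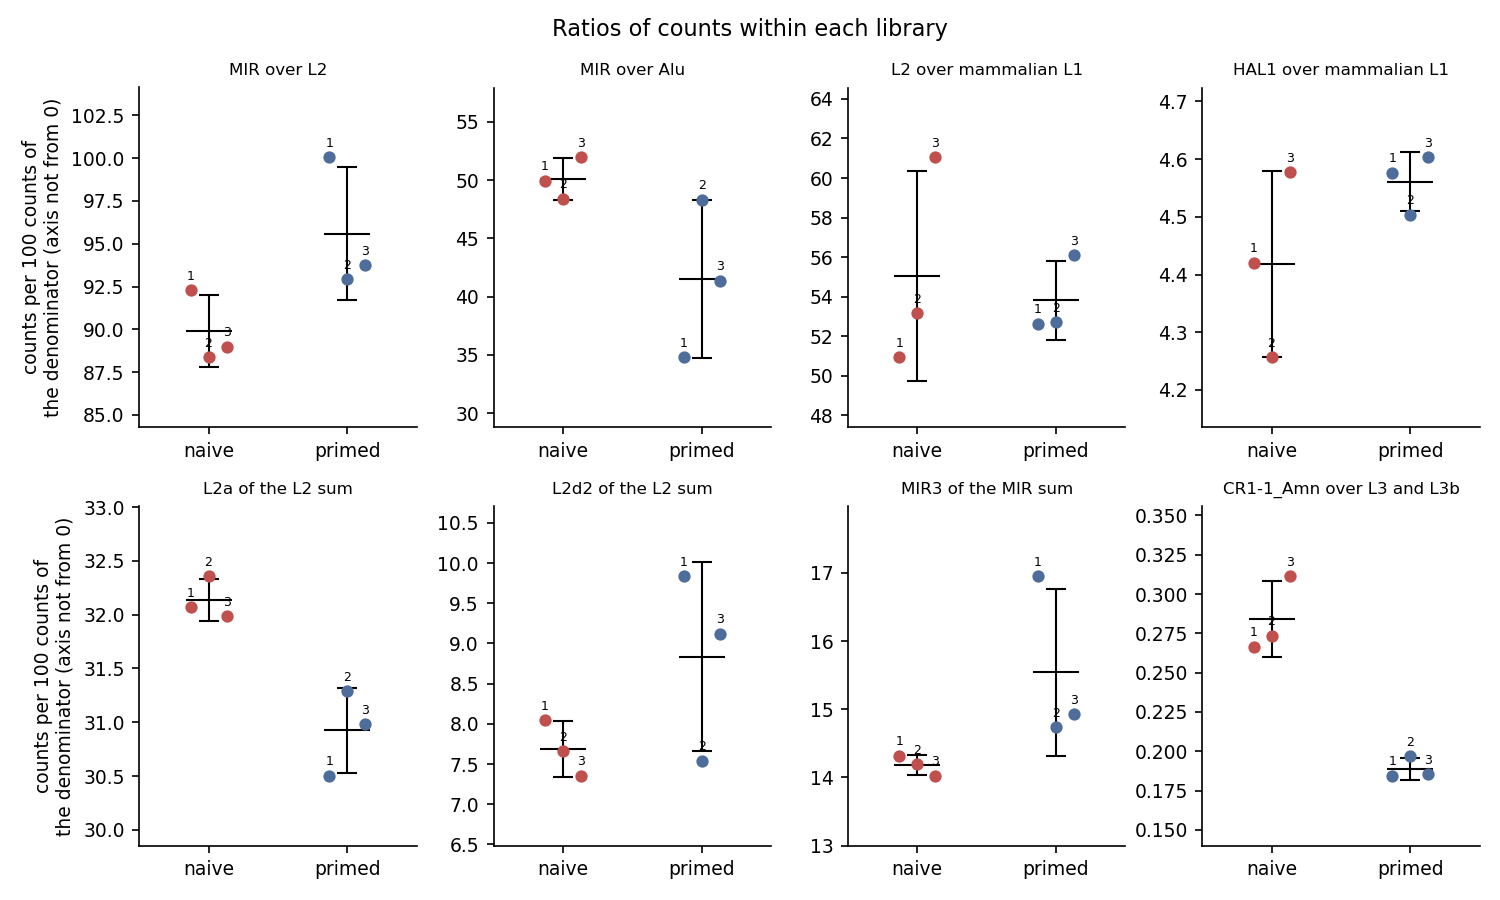
Ratios of counts within each library are plotted as counts per 100 counts of the denominator (numbered points; mean and SD of 3 libraries; axes do not start at 0). MIR over L2 and MIR3 within MIR lie lower in naive libraries. L2a within L2, MIR over Alu and CR1-1_Amn over L3 and L3b lie higher, and the others overlap. The CR1-1_Amn point of primed library 2 rests on 2 counts.

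Set against other transposons, L2 counts per 100 counts of mammalian L1 (the L1M families) were 50.9, 53.2 and 61.0 in the naive libraries (1 to 3), against 52.6, 52.7 and 56.1 in the primed ones (1 to 3). The groups overlapped fully (log2 difference 0.029, exact permutation p = 0.8). HAL1 counts per 100 counts of mammalian L1 were 4.42 ± 0.160 in the naive libraries, against 4.56 ± 0.0514 in the primed ones (exact permutation p = 0.3, n = 3 each). L2 counts per 100 counts of MLT1, an old retroviral group, were 263 ± 8.04 in the naive libraries, against 282 ± 15.8 in the primed ones (exact permutation p = 0.2, n = 3 each), and per 100 counts of hAT and Tigger DNA transposons they were 167 ± 11.0 in the naive libraries, against 165 ± 3.90 in the primed ones (exact permutation p = 0.9, n = 3 each).

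MIR was also compared with Alu, the younger and far more numerous short element of primates. MIR counts per 100 Alu counts were 49.9, 48.4 and 51.9 in the naive libraries (1 to 3), against 34.8, 48.3 and 41.4 in the primed ones (1 to 3). Naive libraries were above primed ones, by a margin of less than 0.1 per 100 between naive library 2 and primed library 2 (log2 difference 0.28, exact permutation p = 0.1). Without primed library 1 the difference was 0.16.

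The median log2 changes of these families were 0.20 for L2, 0.11 for MIR, 0.26 for L3 and CR1, 0.22 for L4, L5 and RTE and 0.15 for HAL1, beside 0.23 for 88 mammalian L1 entries, 0.52 for 19 older primate L1 entries, 0.31 for 34 MLT1 entries, 0.15 for 129 hAT and Tigger entries and 0.14 for 23 other ancient SINEs and LINEs. Alu entries had a median of -0.18. Of these other lists 10, 8, 3, 8, 1 and, for Alu, 0 entries were called higher and 0 lower, and the call among the other ancient SINEs and LINEs was X2_LINE. The MLT1 calls were MLT1E3, MLT1G1 and MLT1M. Leaving out simple repeats before scaling moved the medians to -0.034 for L2, -0.12 for MIR, 0.064 for L3 and CR1, -0.0035 for L4, L5 and RTE and -0.088 for HAL1, while the median of named repeats became -0.0082. With library size alone they were -0.49, -0.54, -0.33, -0.45 and -0.51 in the same order of families, beside -0.42 for named repeats.

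**Figure D5:**
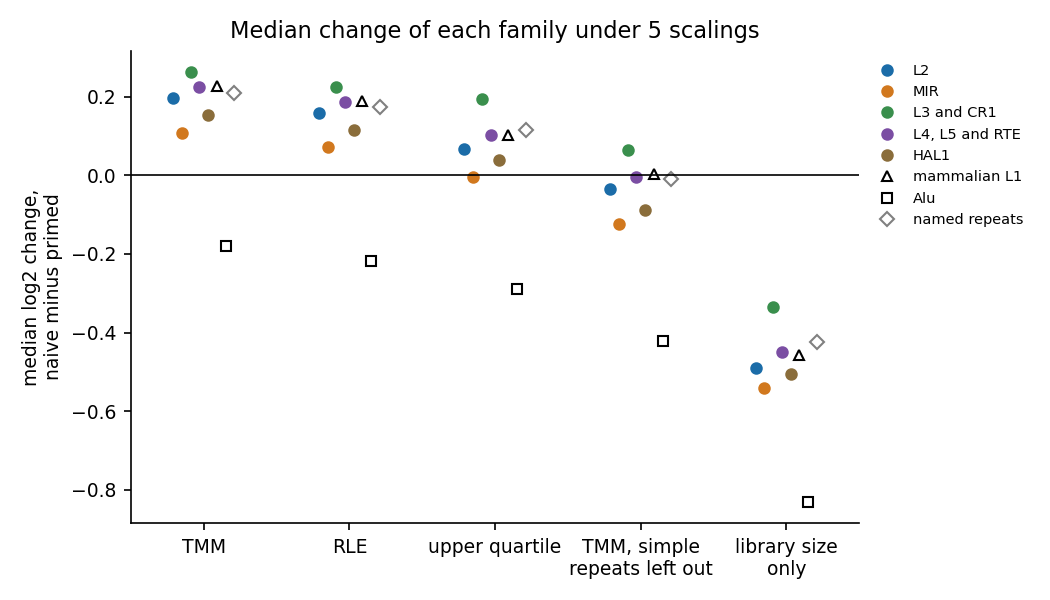
The median log2 change, naive minus primed, of each family, of mammalian L1, of Alu and of all named repeats is plotted under each scaling of the libraries. A scaling factor applies to every entry of a library, so all lists shift together as the scaling changes. The medians of the 5 ancient families lie from 0.11 to 0.26 with TMM and from -0.54 to -0.33 with library size alone.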

How the data were processed

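The authors deposited raw counts, whole numbers for each repeat name in each library, with no normalisation. The submitters' processing notes name Trimmomatic 0.39, STAR 2.7.8a, featureCounts and Subread 2.14.2. Strand setting, handling of multi-mapping reads, genome build and the annotation of repeats are not stated in those notes or the labels, so reads can move between similar entries. Columns were matched to libraries by title and groups taken from the treatment label.

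Counts were tested with edgeR 4.0.16 (R 4.3.3), using filterByExpr by group, TMM factors and a quasi-likelihood F-test for naive over primed cells, and p-values were adjusted by Benjamini-Hochberg over all 3219 entries tested. The standard error is the log2 change divided by the square root of F, and 95% intervals use the fit's degrees of freedom. CPM values are TMM-normalised. Shares and ratios of summed counts were compared by exact two-sided permutation tests over libraries. DESeq2 1.42.0 was an alternative. In a simulated naive against primed comparison of 3120 entries, the procedure recovered 53.7% of 2-fold and 92.9% of 4-fold changes, and unchanged entries made up 5.33% of its 150 calls. The simulated counts were drawn from the mean of each entry over all libraries. They did not carry over the difference in alpha satellite between the real groups, so these rates may not hold for the real calls.

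The entries, the lists and the ratios were chosen with earlier results of these data known. Values are given for every entry with a plain family name, any entry past the threshold and the 3 largest changes in each direction; L2d2, CR1-16_AMi and CR1-3_Croc, and the remaining entries where given, were named after their values were seen. Consensus sequences were not used here.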

Additional observations from a re-analysis of the deposited data

How the results depend on the processing

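The count of repeats called moved from 409 to 1079 with library size alone, 211 with DESeq2, 860 with no filter, 48 with simple repeats left out and 638 with the replicate block, and lay between 15 (without primed library 1) and 651 (without naive library 1) with 1 library left out. Of the repeats called, 38.9% were higher in naive cells with TMM, 23.3% with upper-quartile factors and 2.60% with library size alone. The cause of these moves was not tested. Of the 35 ancient entries, 4 were called with library size alone, 2 with the replicate block (CR1-16_AMi and CR1-1_Amn, edgeR adjusted p = 0.0374 and 0.0347) and between 0 and 1 with 1 library left out; the other alternatives called 0. Same-numbered libraries correlated at 0.15, 0.087 and 0.066 in their deviations from the group means, each best with its own number, a hint from the data and not the design.

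Differences in share (naive minus primed, percentage points) turned to 0.147 for all 35, 0.329 for L2, 0.00508 for L3 and CR1 and 0.0161 for L4, L5 and RTE outside alpha satellite and ribosomal RNA, and to 0.158 for L2 and 0.00930 for L4, L5 and RTE among named repeats. Log2 ratios that changed sign with 1 library left out ranged from -0.020 to 0.070 for L4, L5 and RTE over L2, -0.048 to 0.083 for L2 over mammalian L1, -0.029 to 0.066 for L2 over hAT and Tigger, and -0.022 to 0.020 for L2d within L2.

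With library size alone the median of the 35 became -0.48, and the log2 changes became -0.45 for L2, -0.43 for L2a, -0.46 for L2b, -0.52 for L2c, -0.49 for L2d, -0.54 for MIR, MIRb and MIR1_Amn, -0.57 for MIRc, -0.51 for L3, -0.63 for L3b, -0.41 for CR1_Mam, -0.52 for L4_A_Mam, -0.36 for L4_B_Mam, -0.42 for L4_C_Mam, -0.60 for L5, -0.48 for MamRTE1 and HAL1b, -0.54 for HAL1, -0.10 for CR1-16_AMi and -0.19 for CR1-3_Croc. With simple repeats left out the median became -0.048, with -0.0095 for L2b, -0.063 for L2c, -0.034 for L2d, -0.090 for MIR, -0.087 for MIRb, -0.12 for MIRc, -0.13 for MIR1_Amn, -0.064 for L3, -0.18 for L3b, -0.048 for L4_A_Mam, -0.20 for L5, -0.053 for MamRTE1, -0.083 for HAL1 and -0.019 for HAL1b. Entries near 0 also changed sign: MIRc (-0.018), MIR1_Amn (-0.0037), L3b (-0.079) and L5 (-0.060) with upper-quartile factors, L5 with RLE factors (-0.0089) and DESeq2 (-0.010), L3b (-0.0012) and L5 (-0.023) without alpha satellite and ribosomal RNA, and L2d2 (0.0098) with the block. With 1 library left out, MIR3 ranged from -0.10 to 0.041, L2d2 from -0.13 to 0.062, HAL1ME from -0.045 to 0.061, MIR1_Amn from -0.033 to 0.18, L3b from -0.0044 to 0.10 and L5 from -0.034 to 0.11. Of 435 values of 29 entries under 15 alternatives, 370 kept direction and side of the threshold, 8 passed it and 57 changed sign. Sums over entries that pass the filter equal the main sums, since all 35 pass. Depth limits the rare CR1 entries, which have between 1 and 11 counts in primed library 2.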
